A study of Mus musculus with 2 samples.

Results

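The unfolded protein and integrated stress genes described here are 10 genes, Hspa5, Hsp90b1, Dnajb9, Xbp1, Ddit3, Atf4, Trib3, Psat1, Asns and Chac1. They were taken by gene symbol from the 32285 features of both count matrices, and all 10 were found. Ddit3 was listed under 2 feature IDs. ENSMUSG00000025408 carried 7221 UMIs (unique molecular identifiers, 1 per captured transcript) in the kept Atg5-KO cells and 4117 in the kept control cells, while the overlapping entry ENSMUSG00000116429 carried 0 in both, so the first was used.

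When unfolded proteins build up in the endoplasmic reticulum (ER), the sensors IRE1, PERK and ATF6 start a program that raises the ER's chaperones. IRE1 splices Xbp1 mRNA to make an active transcription factor, and ATF6 acts with it on chaperone genes such as Hspa5. PERK and other kinases phosphorylate the initiation factor eIF2, which slows translation in general and raises translation of ATF4, a transcription factor that drives amino acid genes (Asns, Psat1) and stress effectors (Ddit3, Trib3, Chac1). Müller glia, the radial glia that span the retina, keep neurons supplied with metabolites and respond to inflammation and injury.

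Retinas were measured by single-cell RNA sequencing after lipopolysaccharide (LPS), a bacterial cell wall component that sets off inflammation, was injected into the vitreous at 0.5 µg per eye in both groups. The Atg5-KO group (GLAST-CreER; Atg5fl/fl) carried a Cre recombinase driven by the GLAST (Slc1a3) promoter, active in Müller glia and inducible by tamoxifen, and received 4-hydroxy-tamoxifen. The control group (Atg5fl/fl) carried the same floxed allele of Atg5, an autophagy gene, with no Cre, and no tamoxifen is named in its labels. There was 1 library per group, each from pooled retinas (n = 6 per the labels), so Cre, drug, gene loss and library cannot be told apart, no difference below has a replicate check, and no test between groups was made. The labels state no age, sex or time between injection and harvest.

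The Atg5-KO matrix held 5229 barcodes and 50676223 UMIs, and the control matrix 8690 barcodes and 43669961 UMIs. After filtering, 4662 Atg5-KO cells (median 6808 UMIs) and 8274 control cells (median 1396 UMIs) were kept, and 15 barcodes occurred in both libraries. Classes were named from marker genes, and 1249 Atg5-KO cells (26.8%) and 3067 control cells (37.1%) stayed unnamed. Among the unnamed was a cluster of 55 Atg5-KO and 61 control cells that scored highest for Müller glia. Another such cluster held 23 and 48 cells, and in both the lead over the next class was too small for a name. Müller glia-like cells numbered 562 in the Atg5-KO library and 340 in the control library, with a median of 20070 and 15720 UMIs, and all 13 Müller markers were detected in both. Atg5 itself stood at 17.9 CPM (the gene's UMIs with all UMIs of the class scaled to 1000000) in Atg5-KO Müller glia-like cells and 19.6 CPM in control cells, from 200 and 109 UMIs. A 3' tag reads the end of a transcript and checks no deletion upstream of it.

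The promoters of 4 of the 10 genes held a match to 1 of 4 known stress motifs within the 250 bases before a RefSeq start (GRCm38.p6, both strands searched). The motifs were the ER stress element (CCAAT and CCACG with 9 bases between them), the unfolded protein response element core TGACGTG, the cyclic AMP response element TGACGTCA and the C/EBP-ATF element TGATGNAA, at which ATF4 is known to bind. They occurred in 0.113%, 1.65%, 1.55% and 3.45% of 32851 promoters. The first and second motif are shown because they sit before the chaperone genes, and the last because it sits before amino acid and effector genes. Each stretch is written 5′ to 3′ on the gene's strand, with the match in capitals.
Hspa5, chr2:34771928-34771944, plus strand, 157 to 151 bases before the start: agcaaTGACGTGagttg
Hspa5, chr2:34772020-34772048, plus strand, 65 to 47 bases before the start: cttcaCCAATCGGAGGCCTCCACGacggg
Hsp90b1, chr10:86705633-86705661, minus strand, 212 to 194 bases before the start: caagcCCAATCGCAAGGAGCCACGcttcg
Hsp90b1, chr10:86705528-86705556, minus strand, 107 to 89 bases before the start, matching on the other strand: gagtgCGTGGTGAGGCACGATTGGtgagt
Asns, chr6:7693220-7693237, minus strand, 23 to 16 bases before the start: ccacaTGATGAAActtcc
Chac1, chr2:119351044-119351061, plus strand, 193 to 186 bases before the start, matching on the other strand: tgccgTTGCATCActcct
Hsp90b1 held 2 matches to the ER stress element and Hspa5 held 1. Among other ER chaperone and folding genes with a promoter in the table, 6 of 17 held this element (Canx, Calr, Pdia6, Dnajc3, Creld2 and Ero1b), as did 2 of 21 genes of ER-associated degradation and translocation (Syvn1 and Derl3) and 0 of the 15 amino acid genes. The 4 motifs' letters do not occur in the windows of the other 6 genes. GENCODE, used for the gene positions below, places some starts differently from RefSeq. By its positions the Asns stretch and the Hspa5 stretch with the ER stress element lie inside the gene.

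Hspa5 and Hsp90b1 had their highest levels outside the neurons, though cone-like cells came close for Hsp90b1. Hspa5 (chr2:34771970-34777547, plus strand, GENCODE M21), which encodes the ER chaperone BiP, reached 770 CPM in Atg5-KO and 627 CPM in control endothelial-like cells. In monocyte and macrophage-like cells it stood at 546 CPM in the Atg5-KO library and 743 CPM in the control library, and in Müller glia-like cells at 559 and 545 CPM. It was lowest in retinal ganglion-like cells, at 167 and 139 CPM, 4.62-fold below the highest class of the Atg5-KO library and 5.35-fold below that of the control library. Hsp90b1 (chr10:86690209-86705509, minus strand), which encodes the ER chaperone GRP94, peaked in monocyte and macrophage-like cells, at 518 and 617 CPM. Cone-like cells had 477 and 438 CPM of it, and in the Atg5-KO library their interval overlapped that of the top class. It was lowest in neutrophil-like cells, at 82.0 and 80.5 CPM, where Hspa5 stood at 312 and 222 CPM. Neutrophil-like cells thus lay in the middle of the 10 classes for Hspa5 and last for Hsp90b1 in both libraries.

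Dnajb9 and Ddit3 were the 2 genes with Müller glia-like cells on top in both libraries. Dnajb9 (chr12:44205559-44210326, minus strand), which encodes ERdj4, a BiP co-chaperone, stood at 212 CPM in Atg5-KO and 146 CPM in control Müller glia-like cells. Endothelial-like cells came next, at 151 and 127 CPM, and their counting interval overlapped that of Müller glia-like cells in the control library only. Bipolar-like cells were lowest, at 39.6 and 37.2 CPM. Ddit3 (chr10:127290774-127296288, plus strand), which encodes the transcription factor CHOP, stood at 301 CPM in Atg5-KO and 217 CPM in control Müller glia-like cells. Neutrophil-like cells followed at 159 and 122 CPM, with no overlap of intervals in either library, and the other classes lay between 42.4 and 142 CPM in the Atg5-KO library and between 46.0 and 105 CPM in the control library.

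Atf4 (chr15:80255184-80257541, plus strand) and Xbp1 (chr11:5520659-5525893, plus strand) were both highest in endothelial-like cells. Atf4 stood there at 612 CPM in the Atg5-KO and 441 CPM in the control library, ahead of Müller glia-like cells at 360 and 297 CPM, and cone-like cells at 336 and 290 CPM, which overlapped Müller glia-like cells. Xbp1 stood at 218 and 214 CPM in endothelial-like cells. In neutrophil-like cells it was at 169 and 108 CPM, in monocyte and macrophage-like cells at 146 and 170 CPM, and in Müller glia-like cells at 96.4 and 86.1 CPM. The matrices do not tell spliced from unspliced Xbp1, and Atf4 is governed mainly at translation, which RNA counts do not read.

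Asns and Chac1 had their highest levels in horizontal-like cells, and Psat1 did so in the Atg5-KO library only. Asns (chr6:7675169-7693254, minus strand), which encodes asparagine synthetase, stood at 231 CPM in Atg5-KO and 161 CPM in control horizontal-like cells and at 136 and 127 CPM in retinal ganglion-like cells. Müller glia-like cells had 9.56 and 9.70 CPM, the lowest of 10 classes in the Atg5-KO library, with 3 classes below them in the control library. Chac1 (chr2:119351229-119354381, plus strand), a glutathione-degrading enzyme, was likewise highest in horizontal-like cells, at 22.0 and 20.3 CPM from 29 and 21 UMIs. Retinal ganglion-like cells came next for Asns and Chac1. In the control library only, their intervals overlapped those of horizontal-like cells for both genes. Psat1 (chr19:15904678-15947337, minus strand), an enzyme of serine synthesis, stood at 61.4 and 39.7 CPM in horizontal-like cells. In Müller glia-like cells Psat1 stood at 18.8 CPM in the Atg5-KO library and 42.2 CPM in the control library, and only the control interval overlapped that of horizontal-like cells. Horizontal-like cells numbered 39 in the Atg5-KO and 31 in the control library, and retinal ganglion-like cells 80 and 39, too few in at least 1 library for a ratio between libraries. Trib3 (chr2:152337422-152344032, minus strand), a pseudokinase induced by ATF4 and CHOP, was sparse in each class, with its highest values in rod-like cells, at 20.4 CPM (15 UMIs) in the Atg5-KO library and 10.5 CPM (41 UMIs) in the control library.

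**Figure D1:**
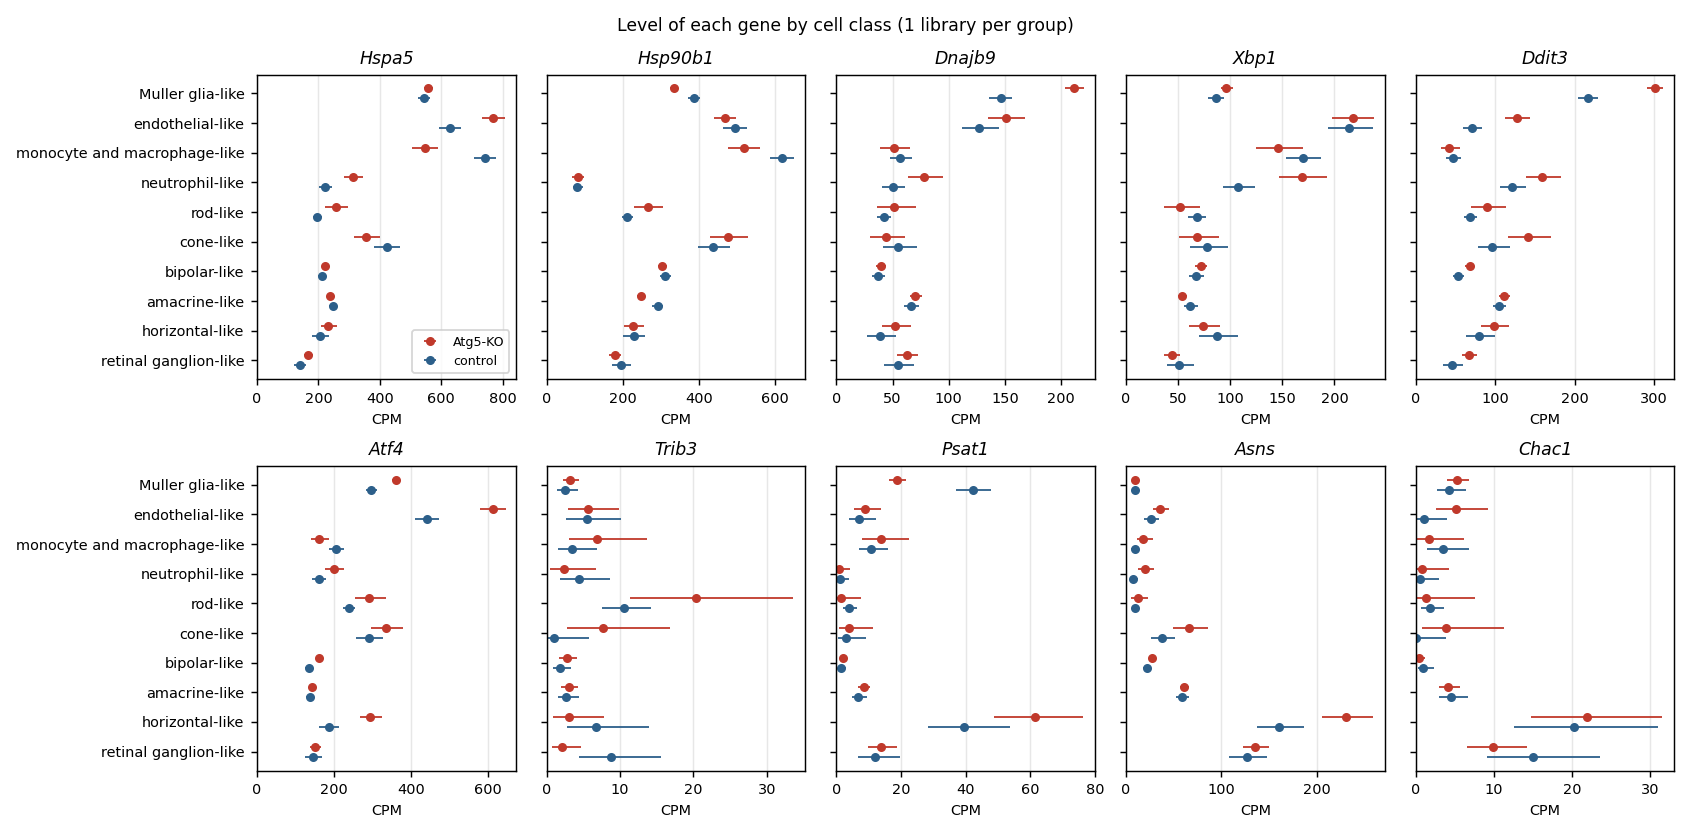
Level of each gene in CPM (horizontal axes, linear, each with its own range) in 10 cell classes, Atg5-KO in red above control in blue, 1 library per group. Points are summed UMIs per class and bars are exact Poisson 95% intervals, which cover counting error only. Ddit3 and Dnajb9 are highest in Muller glia-like cells, and Asns in horizontal-like cells at 231 and 161 CPM.

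Within Müller glia-like cells, Hspa5 and Xbp1 differed little between libraries when scaled to class totals. Dnajb9, Ddit3 and Atf4 stood higher in the Atg5-KO library, and Hsp90b1 and Psat1 stood lower. The Psat1 difference rests on a subcluster almost absent from the Atg5-KO library (0.863 without it). Ratios divide Atg5-KO by control CPM, each with a 95% interval from the exact binomial test of its UMIs, which covers counting error only. Of the 10 genes, 8 were measured with at least 100 UMIs over both libraries. None was at least 1.5-fold higher, against 3.74% of 10329 genes measured, 1 was at least 1.5-fold lower (Psat1), against 15.7%, and 7 lay between. The median log2 ratio of the 8 was 0.10, and that of all genes measured was -0.14. With TMM scaling, which sets the bulk of genes and not the total as the common base, all log2 ratios moved up by 0.21. Of all genes 775 were then higher and 877 lower, against 386 and 1620 by class totals, and of the 10 genes Dnajb9 (1.68) and Ddit3 (1.61) were then higher, and Hsp90b1 stood at 1.00.

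Hspa5 had 6251 UMIs in Atg5-KO and 3035 UMIs in control Müller glia-like cells, a ratio of 1.02 (0.981 to 1.07). Hsp90b1 stood at 335 CPM in the Atg5-KO and 387 CPM in the control library, a ratio of 0.866 (0.821 to 0.913). The ratio of Xbp1 was 1.12, with a lower bound just above 1. By class totals, Hspa5 and Xbp1 thus lay close to equality between the libraries, with log2 ratios of 0.03 and 0.16. TMM scaling adds 0.21 to each, which puts both further above equality. Hsp90b1 stood lower in the Atg5-KO library, though not with TMM scaling.

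Dnajb9 had a ratio of 1.45 (1.34 to 1.57), from 2371 Atg5-KO UMIs and 813 control UMIs. Ddit3 had a ratio of 1.39 (1.30 to 1.49), and the interval of each lay wholly above 1. When each cell was thinned to 5000 UMIs, a Ddit3 UMI was seen in 69.2% of 493 Atg5-KO cells and 56.8% of 243 control cells, and a Dnajb9 UMI in 58.6% and 47.3%. Unthinned shares were 87.5% and 75.0% for Ddit3 and 82.0% and 63.2% for Dnajb9. In rod-like cells, far shallower at a median of 999 UMIs in the Atg5-KO and 1107 UMIs in the control library, a Ddit3 UMI was seen in 11.9% and 7.60% of cells. Thinned to 1000 UMIs, the share for Ddit3 was 23.9% of Atg5-KO and 17.6% of control Müller glia-like cells, and 8.23% of Atg5-KO and 5.71% of control rod-like cells. For Dnajb9 it was 18.9% and 11.4% of Müller glia-like cells, and 6.49% and 4.23% of rod-like cells. The 10 Müller glia-like cells with the most Ddit3 UMIs held 8.43% of the gene's Atg5-KO UMIs and 18.6% of its control UMIs.

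Atf4 stood at 360 CPM in the Atg5-KO and 297 CPM in the control library, a ratio of 1.21 (1.15 to 1.29). Of its amino acid targets, Asns had a ratio of 0.986 (0.704 to 1.39), from 107 and 54 UMIs. Psat1 had a ratio of 0.445 (0.367 to 0.538), from 210 Atg5-KO and 235 control UMIs. At 5000 UMIs per cell, a Psat1 UMI was seen in 8.32% of Atg5-KO and 18.5% of control cells (26.7% and 34.4% unthinned). At 1000 UMIs per cell the share was 1.82% of Atg5-KO and 4.94% of control Müller glia-like cells, against 0 of 231 Atg5-KO rod-like cells (exact upper bound 1.58%) and 0.204% of control rod-like cells. The remaining pair fell under 100 UMIs in Müller glia-like cells: Trib3 had 36 Atg5-KO and 14 control UMIs, and Chac1 had 59 and 24.

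RNA of other cell types within the Müller glia-like class also differed between the libraries. Summed markers of rods stood at 418 CPM in the Atg5-KO and 1079 CPM in the control library (0 of 10 markers at 0 in either), those of neutrophils at 83.0 and 248 CPM (2 and 1 of 9 at 0), and those of erythroid cells at 1451 and 6.29 CPM (0 and 1 of 5 at 0). Summed monocyte and macrophage markers stood at 26.9 and 22.8 CPM, and Müller glia markers themselves at 12140 and 16340 CPM. Their part in the ratios was not tested.

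The libraries filled the Müller glia-like class differently, and this bears on the values above. Clustered again, the class fell into 5 subclusters, numbered 0 to 4. Subcluster 0 held 301 Atg5-KO and 33 control cells, subcluster 1 held 174 and 93, subcluster 2 held 70 and 49, subcluster 3 held 16 and 81, and subcluster 4 held 1 and 84. A group of cells found almost wholly in 1 library may be that library and not a cell state. Of the 10 genes, only Asns and Chac1 were among the genes used to form the subclusters. Subcluster 4 had 4367 CPM of Glul, the glutamine synthetase of mature Müller glia, and 1180 CPM of Lcn2, an inflammatory secreted protein. In the other 4 control subclusters Glul lay between 737 and 2474 CPM and Lcn2 between 5164 and 44800 CPM.

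Subcluster 4 carried much of the control library's Psat1. Its control cells had 105.7 CPM, from 145 of the 235 control UMIs, against 32.0, 11.6, 53.0 and 42.3 CPM in control cells of subclusters 0, 1, 2 and 3. The same cells had 329 CPM of Ddit3, the highest of the 5 control subclusters, and 309 CPM of Hspa5 and 271 CPM of Hsp90b1, the lowest. Without subcluster 4, Psat1 stood at 18.5 CPM in Atg5-KO and 21.5 CPM in control cells, a ratio of 0.863 (0.670 to 1.12). Ddit3 then stood at 301 CPM in Atg5-KO and 180 CPM in control cells, a ratio of 1.67 (1.54 to 1.81). Dnajb9 stood at 212 and 131 CPM, a ratio of 1.61 (1.47 to 1.78). On these cells, 2 of 8 genes measured were at least 1.5-fold higher (Ddit3 and Dnajb9), against 4.11% of all genes, and 0 at least 1.5-fold lower, against 8.83%. Hspa5 had a ratio of 0.897 and Hsp90b1 one of 0.788. Within subcluster 1, the only subcluster with at least 50 cells in each library, Ddit3 had a ratio of 1.38 (1.23 to 1.54), Dnajb9 1.19 (1.05 to 1.35) and Atf4 1.22 (1.12 to 1.32). Summed erythroid markers there stood at 3264 CPM in Atg5-KO and 5.97 CPM in control cells and Müller glia markers at 9891 and 13010 CPM, and their part was not tested.

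**Figure D2:**
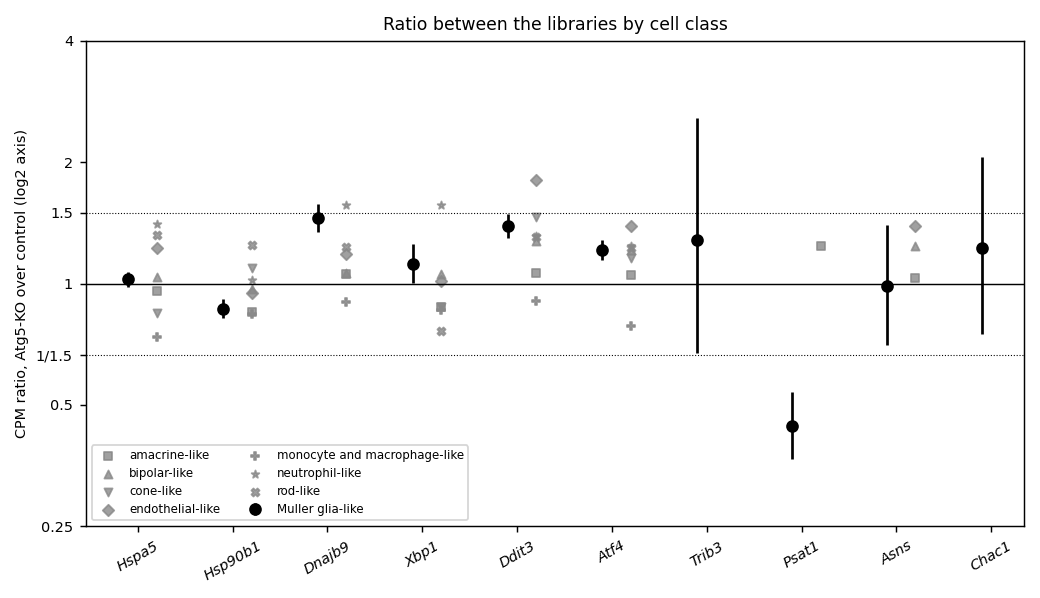
Ratio of CPM, Atg5-KO over control (vertical axis, log2 scale), for each gene. Black circles are Muller glia-like cells with exact 95% counting intervals, grey symbols are other classes with at least 100 UMIs of the gene, and dotted lines mark 1.5-fold. In Muller glia-like cells Psat1 (0.445) lies past the lower line, and Dnajb9 (1.45) and Ddit3 (1.39) lie just inside the upper one.

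The 902 Müller glia-like cells were also put into 3 groups of about equal size by their share of UMIs from Lcn2, a gene induced by inflammation, with limits at 454 and 24650 CPM. This split, like the removal of subcluster 4, was chosen after the data were seen. The groups are ranges of 1 score and not cell types, and 11 and 61 cells lay within 10% of the limits. The low-Lcn2 group held 169 Atg5-KO and 132 control cells, the middle group 182 and 118, and the high-Lcn2 group 211 and 90. Median depth from low to high Lcn2 was 19970, 18660 and 22010 UMIs in Atg5-KO cells and 13930, 4582 and 24870 UMIs in control cells. In order from low to high Lcn2, Hspa5 stood at 500, 521 and 624 CPM in Atg5-KO cells and at 395, 542 and 665 CPM in control cells. High over low, that is a ratio of 1.25 (1.17 to 1.33) in Atg5-KO cells and 1.68 (1.54 to 1.84) in control cells. Hspa5 was thus higher at high Lcn2 in both libraries. Of the control cells, 66 of 132 at low Lcn2 and 1 of 90 at high Lcn2 were of subcluster 4. Its part in the high over low ratios of control cells, here and below, was not tested. Xbp1 stood at 99.1, 88.4 and 99.8 CPM in Atg5-KO cells and at 64.8, 81.8 and 105 CPM in control cells.

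Ddit3 ran the other way. It stood at 346, 299 and 271 CPM from low to high Lcn2 in Atg5-KO cells and at 290, 208 and 164 CPM in control cells. High over low, the ratio was 0.785 (0.725 to 0.851) in Atg5-KO cells and 0.566 (0.495 to 0.646) in control cells. Psat1 stood at 23.1, 26.8 and 10.5 CPM in Atg5-KO cells and at 81.1, 41.2 and 12.3 CPM in control cells, so it too was lowest at high Lcn2 in both libraries. Among the 7 genes measured in Atg5-KO cells 0 were at least 1.5-fold higher at high Lcn2, against 3.71% of genes, and 1 at least 1.5-fold lower (Psat1), against 5.45%. Among the 7 measured in control cells 2 were at least 1.5-fold higher (Hspa5 and Xbp1), against 11.1%, and 2 at least 1.5-fold lower (Ddit3 and Psat1), against 27.8%. Chac1 had 41 UMIs at high Lcn2 and 7 at low Lcn2 in Atg5-KO cells, and 13 and 5 in control cells.

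Between libraries, the ratio of Ddit3 was 1.19 (1.07 to 1.32), 1.44 and 1.65 from low to high Lcn2, and that of Dnajb9 was 1.38, 1.34 and 1.59. Atf4 had ratios of 1.31, 1.15 and 1.19. Ddit3, Dnajb9 and Atf4 were thus higher in Atg5-KO cells in each of the 3 groups. At low Lcn2, 1 of 7 measured genes was at least 1.5-fold higher (Xbp1, 1.53), against 10.6% of genes, and 1 lower (Psat1), against 24.2%. In the middle group these were 0 of 7, against 4.63%, and 1 of 7 (Psat1), against 13.2%. At high Lcn2 they were 2 of 6 (Dnajb9 and Ddit3), against 5.36%, and 0 of 6, against 5.1%. The Psat1 ratio was 0.285, 0.649 and 0.854 from low to high Lcn2, the last from 50 Atg5-KO and 29 control UMIs, so the libraries lay far apart at low Lcn2 and close at high Lcn2. Of the 84 control cells of subcluster 4, 66 were in the low-Lcn2 group and 17 in the middle group. The Hspa5 ratio was 1.27, 0.961 and 0.938. Summed rod markers stood at 383, 306 and 515 CPM from low to high Lcn2 in Atg5-KO cells and at 905, 1570 and 933 CPM in control cells, and summed neutrophil markers at 140, 67.1 and 53.3 CPM and at 373, 100 and 234 CPM. Summed erythroid markers stood at 1596, 67.1 and 2251 CPM in Atg5-KO cells and at 5.94, 7.37 and 5.94 CPM in control cells, and Müller glia markers at 13310, 12770 and 10930 CPM and at 20890, 15400 and 13310 CPM. Their part in these ratios was not tested.

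**Figure D3:**
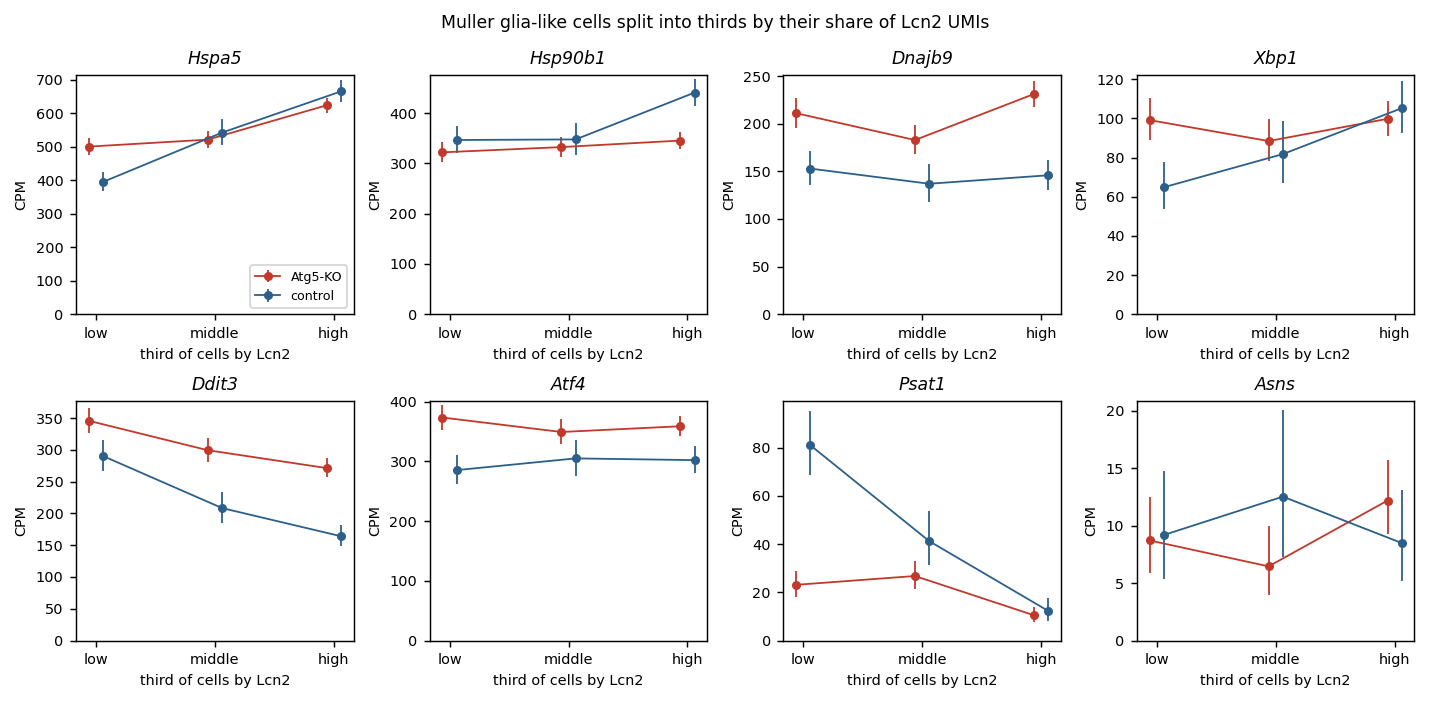
Level of 8 genes in CPM (vertical axes, linear from 0) in Muller glia-like cells split into 3 groups by their share of Lcn2 UMIs, from low to high, Atg5-KO in red and control in blue. Bars are exact Poisson 95% intervals. Ddit3 and Psat1 are lowest at high Lcn2 and Hspa5 highest there, in both libraries.

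The wider pathway was described with 7 lists of genes that exclude the 10. Together 113 list genes were measured in Müller glia-like cells, of which 5 were at least 1.5-fold higher and 3 at least 1.5-fold lower in the Atg5-KO library, against 3.74% and 15.7% of all genes measured. With TMM scaling, which adds 0.21 to every log2 ratio and so puts each list median above 0, 14 were higher and 0 lower. Among 17 stress sensors and genes of eIF2 control, 1 was higher and 1 lower (median log2 ratio -0.02). Ern1, which encodes IRE1, stood at 40.0 CPM in the Atg5-KO and 23.5 CPM in the control library, a ratio of 1.70 (1.40 to 2.08). Taken as the mean of CPM per cell it was 1.23, and with cells called 1 by 1 from the markers 1.37. Atf6 had a ratio of 1.32 (1.14 to 1.54), and Eif2ak4, the amino acid sensor GCN2, lay at the limit with 0.667 and passed it with the 0.5 added to each count. Mbtps2, a protease that takes part in activating ATF6, had 0.687, and Creb3l2, an ER-bound transcription factor, 0.699. Ppp1r15a, which encodes the eIF2 phosphatase subunit GADD34, stood at 286 and 253 CPM, a ratio of 1.13.

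Of 21 ER chaperones and folding enzymes, 1 was at least 1.5-fold higher and 0 lower (median -0.03). That gene was Ero1l, an oxidase that drives disulfide formation, at 66.4 CPM in the Atg5-KO and 31.1 CPM in the control library, a ratio of 2.14 (1.81 to 2.54). Calr, which encodes calreticulin and has the ER stress element in its promoter window, had a ratio of 0.829 (0.784 to 0.876), and Pdia4, a disulfide isomerase, 0.676 (0.601 to 0.760). Manf, a secreted ER stress protein, had 1.15, the proline isomerase gene Ppib 0.979, and Sil1, a nucleotide exchange factor of BiP, 0.713. All 23 genes of ER-associated degradation and translocation lay within 1.5-fold (median -0.05), among them the translocon subunit Sec61g at 882 and 674 CPM (1.31), Selenok at 462 and 371 CPM (1.25), and Edem2 and Edem3, which help to sort misfolded glycoproteins, at 0.684 and 0.678.

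Of 15 amino acid genes under ATF4, 2 were at least 1.5-fold higher and 0 lower (median 0.14). The cationic amino acid transporter Slc7a1 stood at 127 CPM in the Atg5-KO and 60.4 CPM in the control library, a ratio of 2.10 (1.86 to 2.37). Mthfd1l, a mitochondrial folate enzyme, stood at 56.0 and 29.3 CPM, a ratio of 1.91 (1.61 to 2.29), and 1.47 as the mean of CPM per cell. The cystine transporter subunits Slc7a11 and Slc3a2 had 1.46 and 1.28. That of Slc7a11 rested on which cells were taken: it was 0.621 with cells called 1 by 1 from the markers, 1.17 without subcluster 4, and 3.02, 1.95 and 1.16 from low to high Lcn2. Psph, which acts just after Psat1 in serine synthesis, had 0.687 (0.599 to 0.789), and Cbs 0.674. All 14 genes of the aminoacyl-tRNA synthetase list lay within 1.5-fold (median 0.05), from Gars at 0.888 and Tars at 0.912 to the tRNA exporter gene Xpot at 1.21 and Yars at 1.38, with Eprs at 1.01 and Nars at 1.09.

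Of 13 stress effectors of ATF4 and CHOP, 1 was at least 1.5-fold higher and 0 lower (median 0.26). That gene was Gdf15, a stress cytokine, at 36.5 CPM in the Atg5-KO and 5.03 CPM in the control library, a ratio of 7.25 (4.94 to 11.0). From low to high Lcn2 it stood at 21.3, 80.7 and 18.3 CPM in Atg5-KO cells (71, 250 and 87 UMIs) and at 5.94, 3.68 and 5.09 CPM in control cells (11, 5 and 12 UMIs). The ratio was thus far higher in the middle group than at low (3.46) or high Lcn2 (3.47), both with 0.5 added to each count. A few cells held much of this RNA. Without the 5 cells with the most Gdf15 UMIs in each library, 202 of 408 Atg5-KO and 16 of 28 control UMIs were left. The ratio over the class was then 6.08, and the part of those cells in the middle group's value was not tested. The abundant effectors were Atf3, at 1478 and 1123 CPM (1.32), and Nupr1, at 1455 and 1051 CPM (1.39), while Jdp2 had 0.813 and the proapoptotic gene Bcl2l11 0.759. Of 10 genes of the mitochondrial unfolded protein response, 0 were higher and 2 lower (median -0.05). These were Clpx at 0.653 (0.549 to 0.777) and the protease gene Spg7 at 0.589 (0.477 to 0.727). Clpx stood at 0.821 without subcluster 4, 0.817 with cells called 1 by 1 and 0.755 with TMM scaling, and Spg7 at 0.681 with TMM scaling. The chaperones Hspd1, Hspe1 and Hspa9 had 0.881, 1.01 and 1.14, and the protease Lonp1 stood above 1 as well, at 27.6 and 23.0 CPM.

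**Figure D4:**
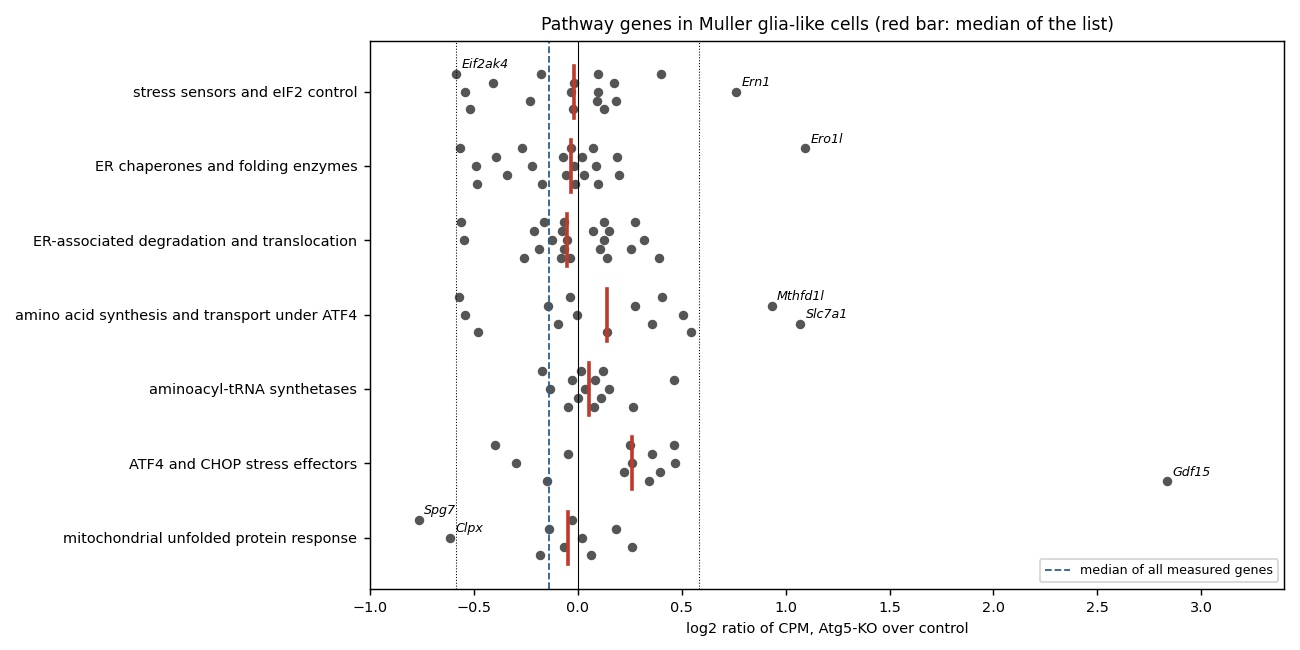
Log2 ratio of CPM, Atg5-KO over control (horizontal axis), of each of the 113 measured list genes in Muller glia-like cells, 1 row per list. Red bars are list medians, the dashed line is the median of all genes measured (-0.14), dotted lines mark 1.5-fold, and genes at or past them are named. Gdf15 lies farthest out at 7.25-fold.

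Along Lcn2, most chaperone genes stood above 1, high over low, as Hspa5 did. Of the ER chaperones and folding enzymes, 18 of 21 measured were above 1, high over low, in Atg5-KO cells, with a median log2 ratio of 0.21 against -0.08 over all genes, and 18 of 20 in control cells, with a median of 0.43 against -0.20. Over all genes measured, 2932 of 7876 were above 1 in Atg5-KO cells and 2296 of 6178 in control cells. In control cells 6 were at least 1.5-fold higher (Calr, Pdia6, Dnajb11, Sdf2l1, Manf and Ppib) and 1 lower (Sil1), against 11.1% and 27.8% of all genes. In Atg5-KO cells 1 was higher (Ero1l), against 3.71%. Of the control cells, 66 of 132 at low Lcn2 and 1 of 90 at high Lcn2 were of subcluster 4, and its part was not tested. Sdf2l1, an ER chaperone cofactor, stood at 37.8 CPM at high and 28.5 CPM at low Lcn2 in Atg5-KO cells and at 68.7 and 24.9 CPM in control cells. Calr stood at 329 and 270 CPM in Atg5-KO cells and at 471 and 246 CPM in control cells. Slc7a11 was higher at high Lcn2 in both libraries, by 2.78-fold in Atg5-KO and 7.24-fold in control cells. Nupr1 stood at 1379 CPM at high and 1669 CPM at low Lcn2 in Atg5-KO cells, against 1474 and 617 CPM in control cells, and Atf3 at 1343 and 1690 CPM against 884 and 1545 CPM. These names were chosen after their values along Lcn2 were seen.

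Cell by cell in control cells, Hspa5 went with other chaperone genes more than with Ddit3. Subcluster 4, with 84 control cells and 1 Atg5-KO cell, was not left out here. Its control cells had the lowest Hspa5 (309 CPM) and Hsp90b1 (271 CPM) of the control subclusters and the highest Ddit3 (329 CPM). The part of subcluster 4 in the control values below was not tested. Over Müller glia-like cells thinned to 5000 UMIs, Spearman's rho between Hspa5 and Hsp90b1 was 0.24 in 493 Atg5-KO cells and 0.36 in 243 control cells, and between Hspa5 and Xbp1 0.20 and 0.33. Between Hspa5 and Ddit3 it was 0.12 and 0.03, and between Ddit3 and Atf4 0.09 and 0.00. Over 12 ER chaperones and folding enzymes with at least 1000 UMIs, median rho with Hspa5 was 0.12 in Atg5-KO and 0.29 in control cells. It ranged from -0.03 to 0.27 in Atg5-KO and from -0.02 to 0.45 in control cells. The Atg5-KO median was about equal to the rho of Hspa5 with Ddit3 there. With Ddit3 the median over the 12 was 0.01 in Atg5-KO and -0.03 in control cells. These are descriptions, since the cells of a library share their source, counts per cell are sparse, and weak values are no finding.

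In the other classes with at least 50 cells in each library, few of the 10 genes passed 1.5-fold. In endothelial-like cells 1 of 7 measured was higher, against 2.51% of genes there: Ddit3, at 128 CPM in the Atg5-KO and 70.7 CPM in the control library, a ratio of 1.81 (1.46 to 2.25). Of these cells, 28 of 50 in the Atg5-KO library and 19 of 56 in the control library came from a cluster that also carried RNA of the pericyte gene Rgs5, and their median depth was 41180 and 23542 UMIs. In neutrophil-like cells 2 of 6 measured were higher, against 3.61% of genes: Xbp1, at 169 and 108 CPM, a ratio of 1.57 (1.29 to 1.91), and Dnajb9, from 102 and 92 UMIs, a ratio of 1.56 (1.17 to 2.09). Of these cells, 5 of 164 in the Atg5-KO library and 52 of 219 in the control library came from 1 cluster. Its part in the ratios was not tested. TMM scaling adds 0.22 to the log2 ratios of this class, and Hspa5 (1.64) and Ddit3 (1.53) then passed 1.5-fold too, making 4 of 6, while the share of all genes higher became 10.3%. In amacrine-like (8 measured), bipolar-like (7), cone-like (5), monocyte and macrophage-like (6) and rod-like cells (6), 0 were past 1.5-fold in either direction. The share of all genes at least 1.5-fold higher was 2.76%, 2.61%, 1.88%, 3.45% and 11.1% in these 5 classes in turn, and the share at least 1.5-fold lower 2.39%, 2.87%, 3.16%, 6.07% and 15.5%. It was 5.69% lower in endothelial-like and 14.6% lower in neutrophil-like cells.

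Ddit3 was above 1 in 7 of the 8 classes compared, at 1.31 in neutrophil-like, 1.30 in rod-like, 1.27 in bipolar-like, 1.46 in cone-like and 1.06 in amacrine-like cells, with intervals that reached below 1 in rod-like and amacrine-like cells. Monocyte and macrophage-like cells were the exception. All 6 genes measured there were below 1, with Hspa5 at 0.735 (0.670 to 0.806), Atf4 at 0.785 (0.659 to 0.932) and Hsp90b1 at 0.838 (0.761 to 0.923). The intervals of Ddit3 (0.905, 0.632 to 1.28), Dnajb9 (0.898, 0.649 to 1.23) and Xbp1 (0.862, 0.715 to 1.035) reached above 1. The 6 had a median log2 ratio of -0.23 against 0.02 over all genes. The difference of the Müller glia-like ratio from those of the other classes was not tested.

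Across 16 sums (8 classes in 2 libraries), the genes whose log2(CPM + 5) most closely followed 8 of the 10 genes (Trib3 and Chac1, with 403 and 411 UMIs, were left out) by Pearson's r were Eif4a1 (0.957), Sap18 and AI506816 for Hspa5, Calr (0.978), Sdf4 and Rex1bd for Hsp90b1, Fstl1 (0.945), Fgfr1 and Tnfrsf12a for Dnajb9, and Tgfbr2 (0.956), Anxa3 and Itpkb for Xbp1. Ddit3 had Chka (0.851), the loosest nearest gene of the 8 named here, followed by Egr1 and Crispld2. Atf4 was nearest to Ctnna1 (0.920), Gpn2 and Trip10, Psat1 to Dbi (0.916), Tmem176b and Tmem176a, and Asns to Ccdc85a (0.890), Nexmif and Usp46. Among the 10 genes, Hspa5 and Xbp1 had the highest r, 0.73, followed by Psat1 with Chac1 (0.68) and with Dnajb9 (0.67). Dnajb9 had 0.66 with both Hspa5 and Ddit3, and Asns no more than 0.24 with any other. Horizontal-like and retinal ganglion-like cells, where Asns and Chac1 stood highest, were not among the 8 classes. The sums share libraries and depth, and these r are descriptions.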

How the data were processed

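Single-cell 3' libraries of pooled retinas, 1 per group, were analysed from the whole-number UMI counts per gene and cell barcode that the authors deposited. Cell Ranger 6.0.0, Seurat 5.2.1 and the genome build mm10 are named in the submitters' processing notes.

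The 10 genes, the marker lists and the 7 pathway lists were chosen with earlier results of these data known. Cells with at least 500 genes and under 25% mitochondrial UMIs were kept, normalised and clustered with Seurat 5.3.0 in R 4.3.3 (2000 variable genes, 11 principal components, resolution 1.0). Non-neuronal clusters were clustered again, and Müller glia-like cells once more at resolution 0.4. A cluster was named where at least 3 of a class's markers had 10 UMIs or more, its score reached 1 with a lead of 1 or more over any other class, and its top 10 genes did not go against the name. Erythroid and lens lists were left out as rivals because their RNA was spread over many cells. These limits were chosen once the data had been looked at, and 10 of 35 clusters stayed unnamed. Doublets were not removed, because Scrublet in scanpy 1.11.5 marked 4 Atg5-KO and 1 control cell, too few to have worked.

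UMIs were summed per class and library and given as CPM with exact Poisson 95% intervals. A gene was measured in a class with at least 100 UMIs over both libraries, and ratios were made in the 8 classes with at least 50 cells in each. Calls at 1.5-fold and log2 ratios used counts with 0.5 added. With 1 library per group no test was possible, and intervals were computed with scipy 1.17.1 in Python 3.11.15 after a check on simulated data. TMM factors came from edgeR 4.0.16. Named list genes are those with the 2 largest and 2 smallest ratios and the 2 highest CPM of each list, unless said otherwise. For class patterns, the 3 genes with the highest Pearson's r among genes of at least 500 UMIs are named, leaving out predicted, mitochondrial and ribosomal genes. Trib3 and Chac1, under 500 UMIs in all, get none. Promoter sequence is from RefSeq and gene positions are from GENCODE M21, both on GRCm38. A 3' library counts 1 end per transcript, so CPM carries no length correction.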

Additional observations from a re-analysis of the deposited data

Results flagged for a closer look

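Between cell classes, 3 of the 10 genes pointed opposite ways, with the interval of the Atg5-KO over control ratio wholly above 1 in one class and wholly below 1 in another. The share of all genes that meet this rule was not counted, so the 3 are not read as a trait of these genes. Hspa5 had a ratio of 1.41 in neutrophil-like cells and 0.735 in monocyte and macrophage-like cells. Of the neutrophil-like cells, 5 of 164 in the Atg5-KO library and 52 of 219 in the control library came from 1 cluster. Hsp90b1 had 1.25 in rod-like cells and 0.838 in monocyte and macrophage-like cells. Atf4 had 1.39 in endothelial-like cells and 0.785 in monocyte and macrophage-like cells. With 1 library per group the differences between classes were not tested. All genes measured had a median log2 ratio of -0.10 in neutrophil-like, -0.14 in rod-like, -0.03 in endothelial-like and 0.02 in monocyte and macrophage-like cells.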

How the results depend on the processing

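No paired analysis was possible because each group had 1 library. Over 13 other ways to form the Müller glia-like values, Ddit3 (1.19 to 1.71), Dnajb9 (1.19 to 1.68) and Atf4 stayed above 1 and Psat1 (0.286 to 0.875) below 1, while Hspa5 (0.897 to 1.27), Xbp1 (0.85 to 1.52) and Asns (0.513 to 1.41) lay on both sides. Psat1 was past 1.5-fold in 10 of the 13, and Hsp90b1 (0.765 to 1.0) was below 1 in 12.

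None of the 10 genes was at least 1.5-fold higher, but 2 were with TMM scaling, without subcluster 4 and at high Lcn2 (Dnajb9 and Ddit3 each time). There was 1 with per-cell marker calls (Ddit3), mean per-cell CPM (Dnajb9), cells thinned to 5000 UMIs (Dnajb9) and at low Lcn2 (Xbp1). The 1 gene lower, Psat1, was 0 genes without subcluster 4. It was also 0 in subcluster 1 and at high Lcn2, where Psat1 had under 100 UMIs and was not measured.

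Of 113 list genes, 5 were higher, against 3.74% of all genes. These became 14 of 113 with TMM scaling (7.5%), 9 of 113 with mean per-cell CPM (5.94%), 15 of 108 in subcluster 1 (4.51%), 12 of 97, 8 of 90 and 13 of 106 at low, middle and high Lcn2 (10.6%, 4.63% and 5.36%), 8 of 111 without subcluster 4 (4.11%) and 3 of 113 at a fold of 2 (1.15%). The 3 lower, against 15.7%, became 0 with TMM scaling (8.49%) and at a fold of 2 (4.82%), 6 of 118 with per-cell calls (12%), 10 of 113 with mean per-cell CPM (27.2%), 7 of 81 with thinned cells (13.7%), 11 of 97 at low Lcn2 (24.2%), 5 of 113 with the same mix of Lcn2 groups (17%) and 5 of 123 with no UMI minimum (29%). The calls of Ern1 and Mthfd1l were lost with mean per-cell CPM, and that of Ern1 with per-cell calls too. Slc7a11 had a ratio of 0.621 with per-cell calls, against 1.46. Eif2ak4 turned to 1.12 in subcluster 1. The causes were not tested. Of these counts 34 stayed within 1.5 times and 26 did not. Trib3, Chac1 and Asns had few UMIs in Müller glia-like cells, at 36, 59 and 107 in the Atg5-KO and 14, 24 and 54 in the control library.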
